A study of Homo sapiens with 2 samples.

Results

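The 4 genes described here belong to the transforming growth factor beta (TGF-beta) pathway: the ligand TGFB1, its type II receptor TGFBR2, the co-receptor NRP1 and the induced matrix protein TGFBI. They were taken by symbol from a table of 2046 genes, and all 4 symbols were found. They were named with their values in these data known, so those values are a description and carry no test. The series holds 2 RNA sequencing libraries of the human triple-negative breast cancer line MDA-MB-231, 1 labelled wild type (genotype TAMER+/+) and 1 labelled knockout (TAMER-/-). The series design calls the deleted gene TMEM25, a transmembrane protein, and its title concerns the activation of STAT3 by monomeric EGFR. Both libraries came from cells grown in DMEM with fetal bovine serum, and no TGF-beta treatment is named. Whether the knockout is 1 clone or a pool is not given in the sources used here.

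With 1 library per genotype no difference below has a replicate check, and intervals cover counting error only. No ratio of knockout to wild type in the table is below 2 and no knockout value below 1, so genes lower in the knockout library, genes at like levels and TMEM25 itself were not analysed here. Some marker levels in the table were unlike those of a basal, mesenchymal-like line such as MDA-MB-231. Of 10 markers fixed for that cell type only PLAU, the urokinase protease, was listed, at 1.46 in the knockout and 0.58 in the wild-type library. The other 9, VIM and CD44 among them, were not analysed here. A marker at like levels in both libraries could not be listed, so the counts of listed markers are no check of the line. Of 12 luminal markers 3 were listed. EPCAM, an epithelial adhesion molecule that such lines are known to express weakly, was at 419.58 and 145.74, TFF3 at 127.85 and 3.68, and TFF1, an estrogen-responsive luminal product, at 5920.23 and 0.94. The summed value of these 3 luminal markers was 6467.66 in the knockout and 150.36 in the wild-type library. A higher knockout sum was fixed in advance, since no ratio in the table is below 2. TFF1 made up most of the knockout sum and EPCAM most of the wild-type sum, and the other luminal markers were not analysed here. Endothelial cells, which carry NRP1, had 1 of 5 markers listed, EMCN at 4.73 and 0.33, while fibroblast and leukocyte markers had 0 of 6 and 0 of 5. NRP1, TGFBR2 and TGFBI, genes that mesenchymal-like breast cancer lines are known to express, were themselves at 0.04, 0.04 and 0.42 in the library labelled wild type. These low values are unlike that label as well. The genes were picked with these values known, though, from a table that leaves out genes at like levels. The values are therefore no separate check of the label. Whether each library comes from the labelled line was not tested, so every wild-type value and fold below is that of the library so labelled. The part of the markers in the differences below was not tested, and in bulk RNA fewer cells of a type and less RNA per cell cannot be told apart.

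TGF-beta is secreted in a latent form, bound to its own propeptide, and is released by proteases or by integrins. The active dimer binds TGFBR2, a serine/threonine kinase that recruits and activates a type I receptor, which in turn phosphorylates SMAD2 and SMAD3 to act with SMAD4 in the nucleus. In breast cancer cells the pathway is known both for growth arrest and for the epithelial to mesenchymal transition and invasion. NRP1 binds class 3 semaphorins and VEGF as well as TGF-beta.

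The 4 genes lie on different chromosomes of GRCh38 and all are protein coding in GENCODE 29. TGFB1 (Entrez 7040) is a minus-strand gene of chromosome 19, from 41301587 to 41353911, and TGFBR2 (7048) on the plus strand of chromosome 3 from 30606502 to 30694142. TGFBI (7045) is on the plus strand of chromosome 5 from 136028895 to 136063818, and NRP1 (8829) is a minus-strand gene of chromosome 10, from 33177492 to 33336262. Where the strand of reads was not used in counting, reads of overlapping genes on opposite strands could not be told apart, and the setting is not given in the sources used here. TGFB1 overlaps 4 protein-coding genes on the opposite strand in this annotation, of which TMEM91 was listed, at 2.07 in the knockout and 0.86 in the wild-type library. NRP1 overlaps an unlisted antisense gene on the opposite strand and an unlisted RNA gene on its own strand. TGFBR2 overlaps an unlisted pseudogene on the opposite strand, and TGFBI overlaps no annotated gene. Of the nearest protein-coding genes to either side, none was listed for any of the 4. They include AXL beside TGFB1, the signal transducer SMAD5 beside TGFBI and the integrin chain ITGB1 beside NRP1.

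RefSeq promoter windows (GRCh38.p14, 250 bases before and 50 after a start) were at hand for 3 of the 4 genes. These were TGFB1, TGFBI and TGFBR2, the last with 2 starts. The upstream TGFBR2 start, 30606356, lies before the GENCODE start of that gene, and the downstream start, 30606601, lies within the gene. The promoters of the ligand and of the receptor are shown as windows of unlike base composition, 77.3% G and C for TGFB1 and 42.3% for the upstream start of TGFBR2. The window of the downstream TGFBR2 start had 61.7%, and the median of all promoter windows was 58.7%. Which TGFBR2 start these cells use was not tested. Each is printed 5′ to 3′ on the gene's own strand up to the base before the start, TGFB1 from chr19:41353923-41354172 on the minus strand and TGFBR2 from chr3:30606106-30606355 on the plus strand. Capitals mark matches to the SP1 motif GGGCGG or the EGR1 motif GCGGGGGCG on either strand.
TGFB1: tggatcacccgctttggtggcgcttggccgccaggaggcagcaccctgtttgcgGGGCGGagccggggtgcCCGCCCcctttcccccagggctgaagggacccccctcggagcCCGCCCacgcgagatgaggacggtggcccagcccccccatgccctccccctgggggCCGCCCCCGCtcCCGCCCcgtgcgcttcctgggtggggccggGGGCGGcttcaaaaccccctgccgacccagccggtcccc
TGFBR2: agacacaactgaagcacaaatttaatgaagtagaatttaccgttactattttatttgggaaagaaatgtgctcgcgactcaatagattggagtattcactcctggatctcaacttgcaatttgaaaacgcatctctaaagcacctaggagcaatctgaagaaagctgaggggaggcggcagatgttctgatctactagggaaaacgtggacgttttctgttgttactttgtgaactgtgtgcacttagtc

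The TGFB1 window held 7 matches to GGGCGG, 6 of them in the printed stretch, and 1 match to GCGGGGGCG that overlaps an SP1 match. The window of the upstream TGFBR2 start held no match to any motif searched. The TGFBI window (72.7% G and C) held 4 SP1 matches, and that of the downstream TGFBR2 start (61.7%) held 2, with an AP-1 match, TGAGTCA, at positions -6 to 0 counted from 0 at the start. No window held the SMAD motifs GTCTAGAC or CAGACA or the STAT motif TTCNNNGAA. Among all 35116 promoter windows, 45.0% hold GGGCGG, 5.07% GCGGGGGCG, 7.71% the AP-1 motif TGANTCA, 7.66% TTCNNNGAA, 16.9% CAGACA and 0.202% GTCTAGAC. Among the 2501 windows of genes in the table the shares were 63.2%, 8.76%, 6.84%, 6.56%, 13.7% and 0.08% in the same order. A match describes letters in the window and does not show a binding site.

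**Figure D1:**
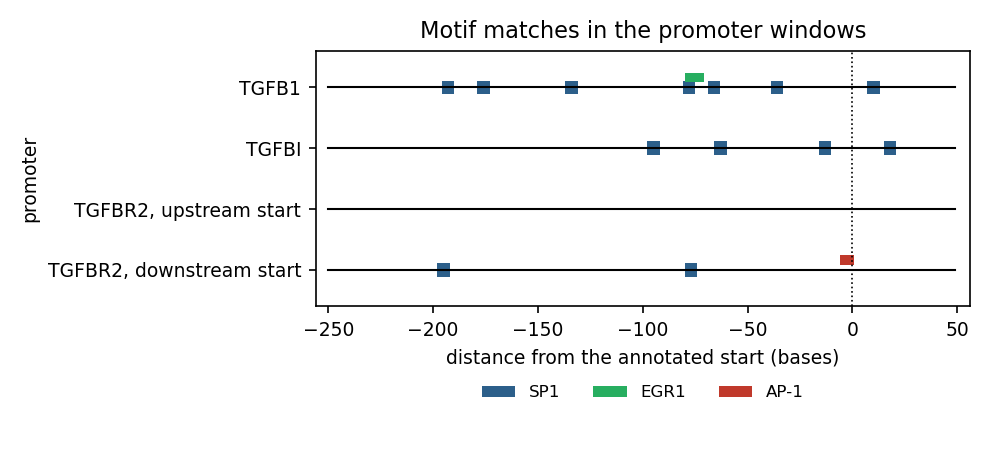
Motif matches (boxes) along the RefSeq promoter windows of TGFB1, TGFBI and the 2 starts of TGFBR2, with the distance in bases from the annotated start on the x axis. SP1 matches number 7 in TGFB1, 4 in TGFBI and 2 at the downstream start of TGFBR2, and the upstream start has no box.

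TGFB1, the ligand, had a deposited expression value of 62.13 in the knockout and 2.57 in the wild type. This value is taken here as scaled for gene length and depth, although its unit is not named, and comparisons of level between genes rest on that reading. The counts behind it were 2689.01 and 98.95 reads, which are estimated counts and need not be whole. TGFB1 was thus the 1 gene of the 4 with a wild-type level above 1. Its read-count fold, the ratio of reads after adjusting for depth, was 23.5 with a 95% counting interval of 19.2 to 29.0. On the log2(value + 1) scale, which lowers the ratio of weakly expressed genes, the difference was 4.14.

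TGFBR2, the receptor kinase that binds the ligand, was at 6.99 in the knockout and 0.04 in the wild-type library, from 584 and 4.06 reads. The wild-type level therefore rests on a handful of reads, and its counting interval ran from 0.0107 to 0.101. The read-count fold was 125, with an interval of 49.1 to 465, and the log2(value + 1) difference was 2.94. The ratio in the authors' deposited table was 174.8, and rounding of the wild-type value to 2 decimals alone allows 155 to 200. Reads per unit of expression value in the knockout over the wild-type library came to 0.82 for TGFBR2 (0.72 to 0.93 with rounding), against a median of 1.155 over 1133 well-covered genes. The corresponding figures were 1.12 for TGFB1, 1.15 for TGFBI and 1.23 for NRP1, the last with a rounding range of 1.08 to 1.38. TGFBR2 was the gene of the 4 whose deposited ratio and read-count fold stood farthest apart.

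NRP1, a transmembrane co-receptor, was at 21.83 in the knockout and 0.04 in the wild-type library, from 2015 and 3 reads. It had the fewest wild-type reads of the 4, and 9.48% of the 2046 genes had as few or fewer. The counting interval of its wild-type level was 0.00825 to 0.117, and that of its knockout level was 20.9 to 22.8. The read-count fold was 581 with an interval of 199 to 2820. The log2(value + 1) difference was 4.46. In the authors' deposited table its ratio of 545.8 ranked 14th of the 2046 genes, and TGFBR2 ranked 46th. These ranks depend on the value of 0.1 that the table gives to the 100 genes without wild-type reads, which lowers the ratios of those genes.

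TGFBI, a secreted matrix protein named for its induction by TGF-beta, was at 10.18 in the knockout and 0.42 in the wild-type library, from 530 and 19 reads. Its level lay between those of the ligand and the receptor in both libraries. The read-count fold was 24.1 with an interval of 15.3 to 40.4, and the log2(value + 1) difference was 2.98. In the authors' deposited table the ratios of TGFBI and TGFB1 were 24.24 and 24.18, ranks 208 and 209.

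**Figure D2:**
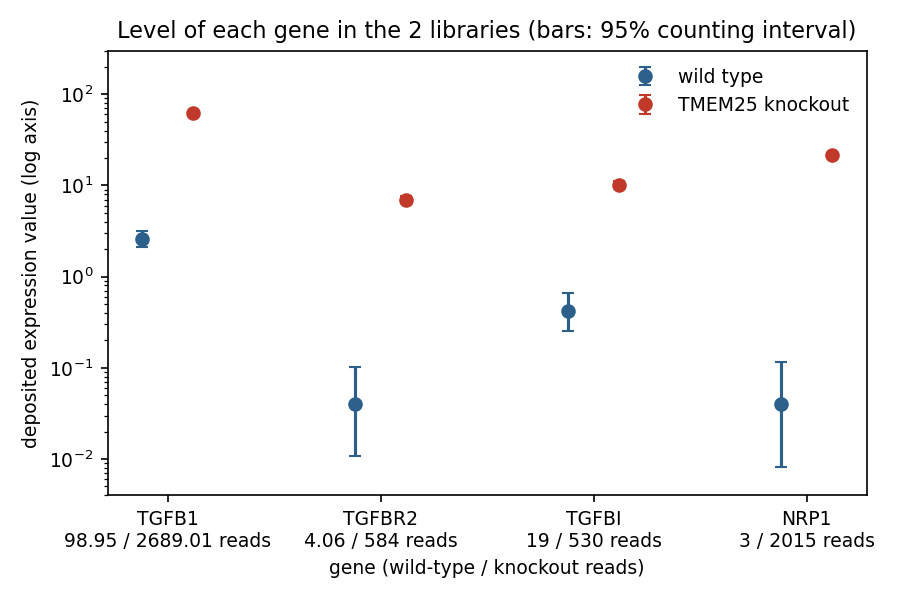
Deposited expression value (log axis) of TGFB1, TGFBR2, TGFBI and NRP1 in the wild-type (blue) and knockout (red) library, 1 library each, with 95% counting intervals as bars and the reads under each gene. The wild-type points of TGFBR2 and NRP1 are both at 0.04 with wide bars, and every knockout point lies above the wild-type bar of its gene.

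The order of the 4 levels differed between the libraries. In the knockout library TGFB1 was highest, 2.85 times NRP1, which was 2.14 times TGFBI, which was 1.46 times TGFBR2, and no counting intervals of neighbours in this order overlapped. In the wild-type library TGFB1 was 6.12 times TGFBI, and TGFBI was 10.5 times NRP1 and TGFBR2, which did not differ beyond counting error. From lowest to highest the levels spanned 8.89-fold in the knockout and 64.2-fold in the wild-type library. The wild-type span divides by 0.04, the rounded level of NRP1 and TGFBR2. Counting intervals of that level were 0.00825 to 0.117 for NRP1 and 0.0107 to 0.101 for TGFBR2, so the span is known only roughly. By read-count fold NRP1 (581) and TGFBR2 (125) had overlapping intervals, as did TGFBI (24.1) and TGFB1 (23.5), while the interval of TGFBR2 lay above that of TGFBI. The receptor and co-receptor thus had larger read-count folds than the ligand and the matrix protein, from wild-type levels near 0. This order did not hold on the log2(value + 1) scale. There TGFBR2 was lowest at 2.94, followed by TGFBI at 2.98, TGFB1 at 4.14 and NRP1 at 4.46.

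All 4 genes passed a 2-fold difference on the log2(value + 1) scale, as did 80.6% of all listed genes. All 4 were at least 4-fold higher, against 21.3% of listed genes, and all 4 had a deposited ratio of at least 10, against 20.1%. A ratio of at least 100 was reached by 2 of the 4, TGFBR2 and NRP1, and by 3.67% of listed genes. The lower limit of the counting interval exceeded 2 for all 4 and for 76.5% of listed genes. The wild-type value was under 1 for 3 of the 4 and 32.9% of listed genes, and 2 of the 4 had under 10 wild-type reads, against 15.7%. Because the genes were picked from this contrast, nothing is read from these shares. The median log2(value + 1) difference of all listed genes was 1.33.

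**Figure D3:**
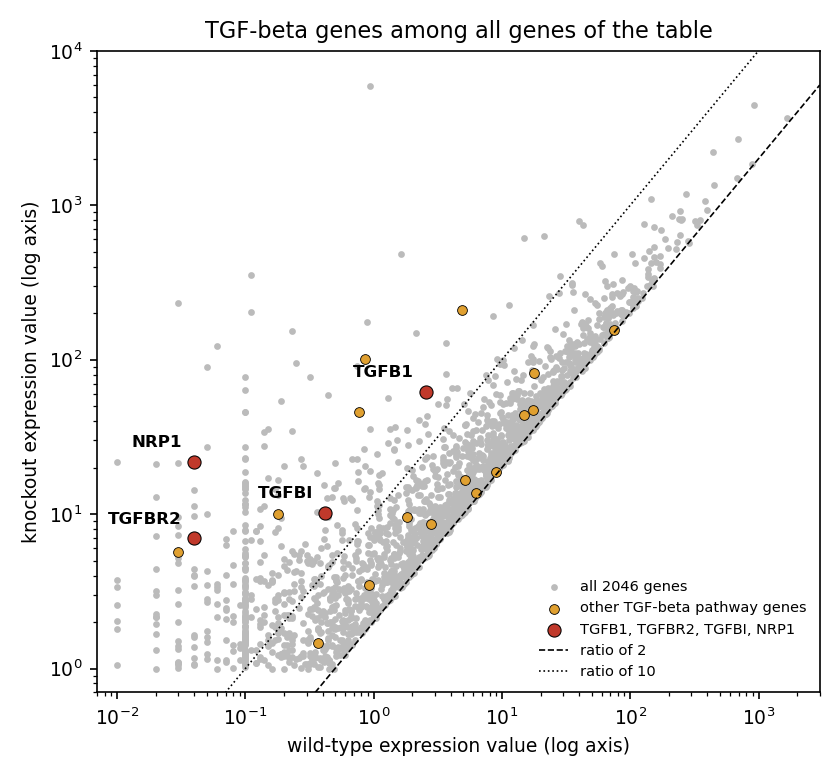
Knockout against wild-type expression value (both log axes) for all 2046 genes (grey), the other TGF-beta pathway genes in the table (orange) and TGFB1, TGFBR2, TGFBI and NRP1 (red), with lines at ratios of 2 and 10. The 4 genes lie above the line of 10, NRP1 and TGFBR2 far to the left with wild-type values of 0.04, and genes without wild-type reads form the column at 0.1.

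The rest of the pathway was followed in a list of 88 genes, of which 20 (22.7%) were in the table. Without the 4 genes described above, the table held 16 of 84, and 14 of these were at least 2-fold higher, beside 80.6% of all listed genes. A 4-fold difference was reached by 6 of the 16 and by 21.3% of all listed genes. Their median log2(value + 1) difference was 1.51, against 1.33 over all listed genes. The remaining genes of the list, including the type I receptor TGFBR1 and the ligands TGFB2 and TGFB3, were not analysed here.

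Among ligands, 3 of 12 were listed, TGFB1 itself and 2 others, and both others were at least 4-fold higher, beside 21.3% of all listed genes. BMP7, a bone morphogenetic protein of the same superfamily, was at 100.3 in the knockout and 0.85 in the wild-type library, with a read-count fold of 118 (91.0 to 158). GDF15, a stress-induced distant member, was at 45.73 and 0.77, with a fold of 59.7 (37.1 to 103). Both folds had intervals above that of TGFB1. Among these 3 listed ligands BMP7 had the highest level in the knockout library and TGFB1 in the wild-type library. The wild-type counting intervals were 0.637 to 1.10 for BMP7 and 2.09 to 3.13 for TGFB1. Ligands that the table leaves out could be higher in either library.

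Among receptors and co-receptors, 3 of 14 were listed. Beside TGFBR2 and NRP1 this was BMPR1B, a type I receptor for bone morphogenetic proteins, at 10.07 and 0.18 from 1032 and 16 reads. Its read-count fold of 55.8 (34.2 to 98.0) overlapped in its interval with that of TGFBR2. All 3 listed genes of this role had wild-type levels under 1, as did 32.9% of all listed genes, and TGFBR2 and NRP1 were picked from this contrast.

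Genes for the latency and activation of TGF-beta gave 3 of 11 listed. Of these, 2 were at least 2-fold higher (80.6% of all listed genes) and 0 at least 4-fold (21.3%). ITGAV and ITGB6, which pair as an integrin that activates latent TGF-beta, were at 47.05 against 17.51 and 9.56 against 1.82, with read-count folds of 2.68 (2.55 to 2.83) and 5.27 (4.39 to 6.38). FURIN, the protease that cleaves the TGFB1 precursor, was at 18.77 against 8.96, and its fold of 2.11 had an interval of 1.91 to 2.32 that includes 2.

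Of the 8 SMADs, 1 was listed. SMAD3, which carries the signal of activated TGF-beta receptors to the nucleus, was at 16.66 in the knockout and 5.17 in the wild-type library, with a read-count fold of 3.27 (2.96 to 3.61). Regulators gave 3 of 14, all near the table's limit of a ratio of 2 or modestly above it. BAMBI, a decoy receptor that lacks the kinase, was at 154.78 and 75.34, the highest wild-type level among the listed pathway genes. SMURF1, a ubiquitin ligase for SMADs and receptors, was at 13.75 and 6.27, and TGIF1, a SMAD co-repressor, at 43.92 and 14.87. Their read-count folds were 2.06 (1.95 to 2.16), 2.19 (1.99 to 2.42) and 2.94 (2.62 to 3.30), and the first and second of these intervals include 2.

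Apart from TGFBI, genes known to respond to TGF-beta gave 6 of 28, of which 5 were at least 2-fold and 3 at least 4-fold higher on the log2(value + 1) scale, beside 80.6% and 21.3% of all listed genes. The median log2 difference of these 6 was 1.74, against 1.33 over all listed genes. The matrix metalloproteinase inhibitors TIMP1 (208.87 against 4.89) and TIMP3 (5.72 against 0.03, from 586 and 3 reads) had read-count folds of 42.8 (33.8 to 55.0) and 169 (57.6 to 822). TIMP3 resembled TGFBR2 in resting on very few wild-type reads. CDKN1A, the cell cycle inhibitor p21, was at 82.26 and 17.92, with a fold of 4.55 (4.17 to 4.97).

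The remaining targets had low levels or small ratios. SNAI1, a transcription factor of the epithelial to mesenchymal transition, was at 3.46 in the knockout and 0.92 in the wild-type library, with a read-count fold of 3.77 (2.43 to 6.09) whose interval lay below that of TGFBI. The fibronectin receptor chain ITGA5 was at 8.66 and 2.79, and the gelatinase MMP9 at 1.46 and 0.37. On the log2(value + 1) scale, which lowers the ratio of such low values, the difference of MMP9, 0.84, fell short of 2-fold. Its read-count fold was 3.9 (2.16 to 7.53).

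**Figure D4:**
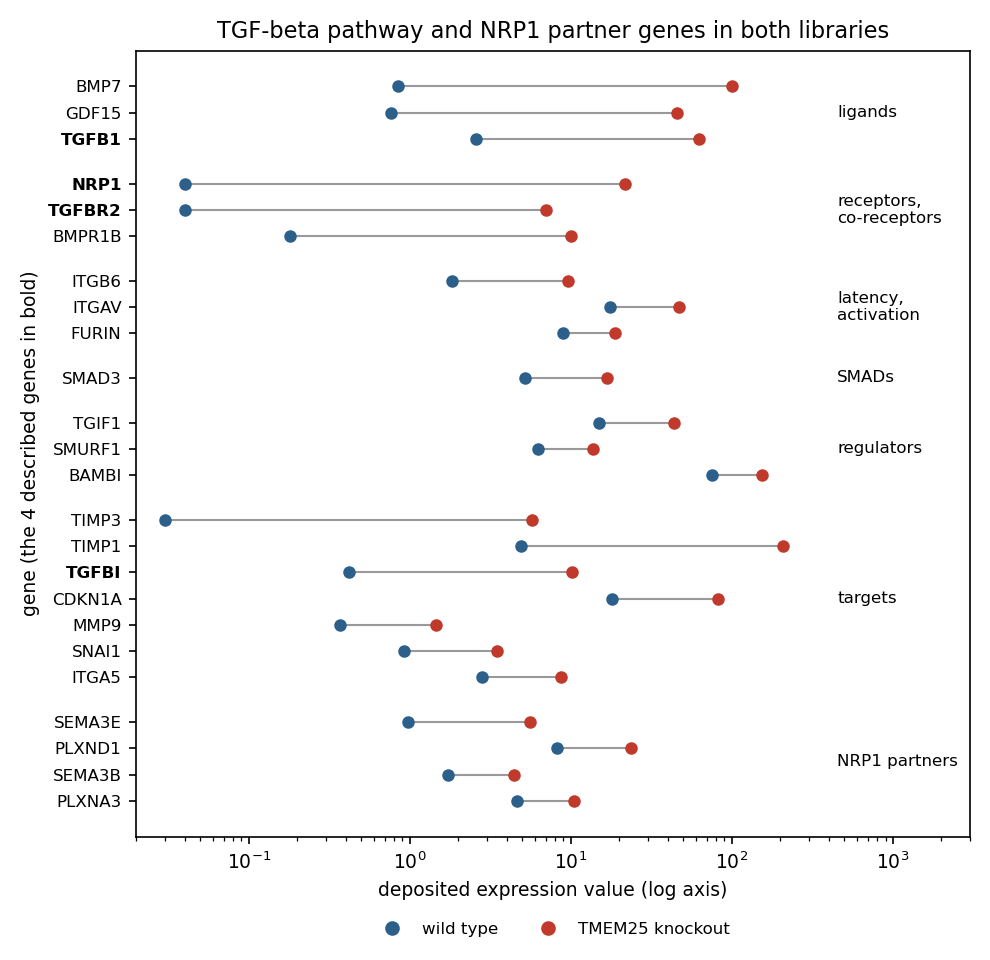
Deposited expression value (log axis) in the wild-type (blue) and knockout (red) library for every listed gene of the TGF-beta pathway and of the NRP1 partners, grouped by role, with TGFB1, TGFBR2, TGFBI and NRP1 in bold. Ligands and receptors have the longest lines, with TIMP1, TIMP3 and TGFBI among the targets, while regulators, SMAD3 and the NRP1 partners have short ones.

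NRP1 also acts outside TGF-beta signalling, with plexins as partners for semaphorins. Of 18 partner genes 4 were listed, 3 at least 2-fold and 0 at least 4-fold higher, beside 80.6% and 21.3% of all listed genes. Their median log2(value + 1) difference was 1.23, against 1.33 over all listed genes. The semaphorin SEMA3E was at 5.54 in the knockout and 0.97 in the wild-type library, and SEMA3B at 4.43 and 1.73. The plexin receptors PLXND1 and PLXNA3 were at 23.78 against 8.22 and 10.48 against 4.63. Their read-count folds ran from 2.29 (2.06 to 2.55) for PLXNA3 to 5.70 (4.65 to 7.10) for SEMA3E, all below the interval of NRP1. VEGFA and the VEGF receptors KDR and FLT1 were not analysed here.

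**Figure D5:**
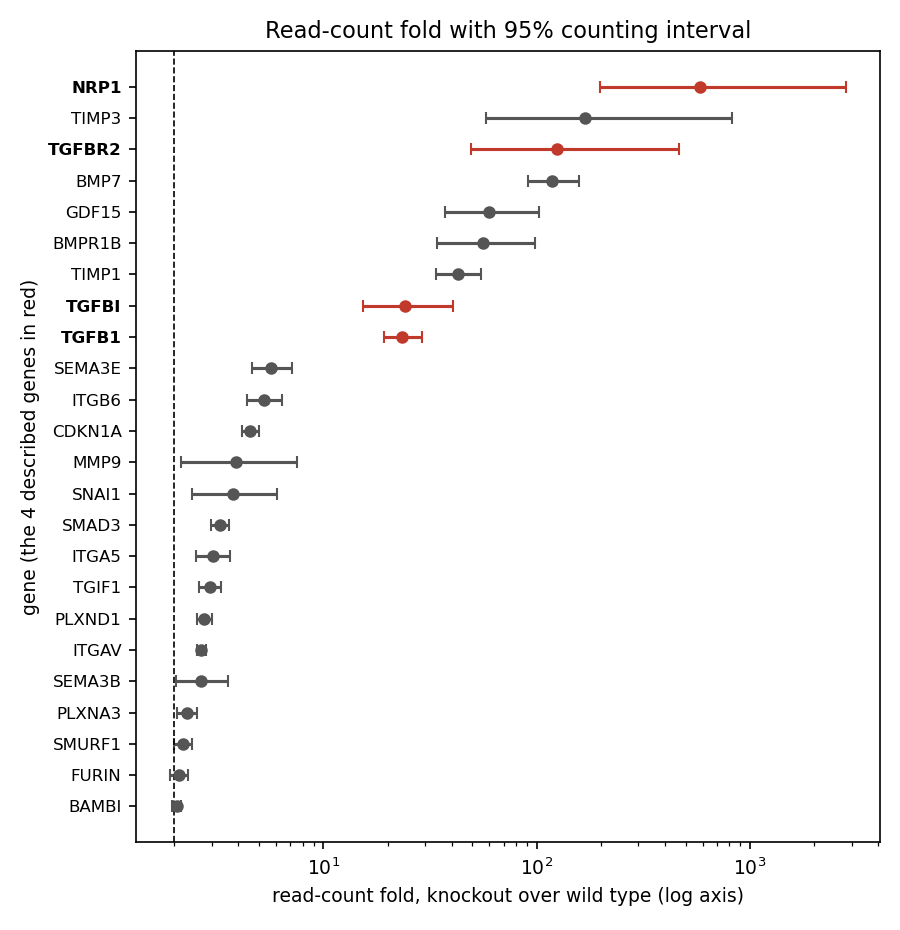
Read-count fold of knockout over wild type (log axis) with its 95% counting interval for the 24 listed genes of the pathway and partner lists, TGFB1, TGFBR2, TGFBI and NRP1 in red, with a dashed line at 2. The 9 highest genes range from 23.5 to 581, and the next, SEMA3E, is at 5.70.

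The genes most like each of the 4 were taken as the 3 with the smallest distance in log2(value + 1) over the 2 libraries, a likeness of 2 values only. For TGFBR2 these were RFTN1 (6.87 against 0.07), DDX43 (7.24 against 0.02) and TFPI2 (7.32 against 0.03), each with 3 wild-type reads or fewer, and 17 genes lay within a distance of 0.25. For NRP1 they were MEST (21.43 against 0.03), MUC5B (21.84 against 0.01) and FZD6 (21.19 against 0.02), with 7 genes within that distance. For TGFBI they were ANXA2R (10.42 against 0.40), LY6G5C (10.33 against 0.36) and PPP1R3C (9.52 against 0.44), with 3 genes that near. TGFB1 had no gene within 0.25, and its nearest was DHRS2 (51.5 against 3.18) at 0.35, followed by MRPL23 and OSR2. None of these 12 genes was in the pathway or partner lists.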

How the data were processed

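RNA of 1 wild-type and 1 knockout sample of MDA-MB-231 was sequenced. CASAVA 1.4, HISAT2 2.0.4 and the build GRCh38.p12 are given in the submitters' processing notes, and the counting tool is not given in the sources used here. Per the file headers, the authors deposited for each library an expression value, used as a signal scaled for length and depth whose unit is not named, and a read count, an estimated count not whole in 43.7% of knockout and 40.7% of wild-type genes. The deposited ratio equals knockout over wild type in 2046 of 2046 genes (tolerance 1e-06). The deposited log2 ratios over the mean carry crossed headers in 2046 of 2046 genes, so direction rests on the other columns.

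Reads summed to 4138956 and 1046999, which is not the depth because the table is a part of each library. Differences are log2((knockout + 1)/(wild type + 1)). Read-count folds are count ratios corrected for depth by a factor of 1.155. It is the median, over the 1133 genes having 100 or more reads in the wild type, of reads per expression unit in the knockout relative to the wild type. Folds are given with exact conditional binomial intervals on rounded counts (95%, scipy 1.17.1). Intervals of a level are exact Poisson intervals. The reads carry no stated molecular identifiers, so they need not come from separate molecules. A gene was called higher by size alone (2-fold), and no test was made. Named genes are the 4 genes, all listed genes of the pathway, partner and marker lists, the 3 nearest genes of each and listed neighbours. A gene of the target list is not reported here and was left out of the list counts. The members and lists were chosen with earlier results of these data known. Coordinates are from GENCODE 29 and promoters from RefSeq. The number of columns matched to no sample was 0. Alternatives were pseudocounts of 0.1 and 5, read counts, centring, a mean of at least 5, a 4-fold rule and the interval's lower limit.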

Additional observations from a re-analysis of the deposited data

How the results depend on the processing

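Each of the 4 genes stayed higher in the knockout library under the 4 alternatives run for its difference. With any pseudocount this direction was fixed in advance, because every listed gene is higher in the knockout library. Read counts come from the same libraries, so the kept direction is no added support. The size of each difference moved with the scale. The log2 difference of TGFB1, 4.14, was 4.54 with a pseudocount of 0.1, 3.15 with 5 and 4.56 from read counts. That of TGFBR2, 2.94, was 5.66, 1.25 and 6.96 in the same order, that of TGFBI, 2.98, was 4.31, 1.49 and 4.59, and that of NRP1, 4.46, was 7.29, 2.41 and 9.18. A larger pseudocount lowers every difference by construction. Centring on the median of the listed genes, which takes 1.33 from every difference although the table was selected for higher genes, left 2.82, 1.61, 1.65 and 3.13. All 4 passed the 2-fold rule, and 3 did when a mean of both values of 5 or more was required, which TGFBR2 missed, with 4 under the other alternatives. Of 18 pathway genes passing, 9 passed after centring and 10 at 4-fold, counts that include the 4 genes picked from this contrast. Without those 4 genes, 14 of 16 passed at 2-fold and 6 at 4-fold, beside 80.6% and 21.3% of all listed genes. Of 3 NRP1 partners, 1 passed with a pseudocount of 5, 0 after centring and 0 at 4-fold. Over all genes 1650 became 844, 279 and 436 under those settings, by construction of each. Depth limits the wild-type side, where TGFBR2 and NRP1 had under 10 reads and their folds are known only within wide intervals. No paired analysis was possible because each genotype has 1 sample.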
